A study of Homo sapiens with 8 samples.

Results

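IL6R and IL6ST encode the subunits of the interleukin-6 receptor, and their transcripts are described here in MIA PaCa-2 cells sorted by how readily lactic acid crosses the plasma membrane. The members were taken by gene symbol, and both symbols were found among the 3666 genes of the authors' table. MIA PaCa-2 is an established human pancreatic ductal adenocarcinoma line, labelled wild type and without drug treatment. Cells were sorted into a fraction with low (PHLac-low) and a fraction with high (PHLac-high) permeability to lactic acid, and the lactate exposure and washout that the sort needs were common to both fractions. The sort was repeated 4 times, with 1 library of each fraction per repeat, so there were 8 libraries in 4 pairs. All libraries came from a single cell line, and the labels do not say whether repeats were separate cultures, so the p-values measure the spread between these samples, which may be technical.

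Interleukin-6 binds IL6R, a receptor chain with a short cytoplasmic tail that does not signal by itself. The complex then engages gp130, the product of IL6ST, whose tail carries Janus kinases and the tyrosines that recruit STAT3. Gp130 is shared by the receptors for leukaemia inhibitory factor, oncostatin M, interleukin-11 and related cytokines, whereas IL6R is the chain that makes a cell directly responsive to interleukin-6. IL6R also exists as a soluble form, made by shedding of the membrane receptor or by splicing, which can act on cells that carry gp130 alone. STAT3 signalling is a known feature of pancreatic cancer, and SOCS proteins, which STAT factors induce, switch the receptor off again.

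The values are read counts that the authors divided by a size factor for each library and are called normalised counts. The table holds only genes with a deposited adjusted p of at most 0.05, so every gene in it had already been selected for a difference between these libraries. Reads in the listed genes ranged from 8979276 to 23176205 per library. Repeat 4 stood apart on the leading principal component (54.7% of the variance over listed genes). Its PHLac-low library was at -6.88, with the other PHLac-low libraries between -25.9 and -24.5, and its PHLac-high library at 33.4, with the others between 14.1 and 18.5. Results are therefore also given without repeat 4. Of 9 ductal and epithelial markers, KRT19 and SOX9 were in the table, and their summed normalised counts, most of them KRT19, ranged from 17500 to 25096 in PHLac-low and from 20491 to 29638 in PHLac-high. SOX9, a ductal transcription factor, was higher in PHLac-high, from 2564 ± 197 to 5669 ± 340 normalised counts (SD, n = 4), a log2 change of 1.15 ± 0.05 (SE). Its fractions did not overlap, with PHLac-high above PHLac-low as in 23.3% of all listed genes. KRT19, a ductal keratin, was higher by 0.23 with overlapping fractions. The part of these markers in the receptor results was not tested. The other 7 were not analysed here.

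IL6R (Entrez 3570) lies on the plus strand of chromosome 1 at chr1:154405193-154469450, and IL6ST (Entrez 3572) on the minus strand of chromosome 5 at chr5:55935095-55994993 (GENCODE release 29, GRCh38, the assembly that the submitters' processing notes name as hg38). The principal IL6R transcript has 10 exons and 5914 bases, of which 1404 are coding, and that of IL6ST has 17 exons and 9057 bases, of which 2754 are coding. The antisense gene IL6R-AS1 overlaps the start of IL6R, with 522 bases of its span over exons of the principal transcript. The antisense gene AC008914.1 lies wholly within exons at the 3′ end of IL6ST, along 5585 bases. AC008892.1, a long noncoding gene also on the strand opposite IL6ST, has 298 bases of its span over IL6ST exons. Libraries were prepared with strand marking, but how strand was used in counting is not given in the sources used here, so reads of these antisense partners could not be told apart from those of the members. Of 9008 stretches of 50 bases in the IL6ST transcript 134 (1.49%) also occur in its processed pseudogene IL6STP1, and 0 of 5865 in the IL6R transcript occur in IL6RP1.

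The values are per gene and do not separate the membrane from the soluble form of IL6R. These forms differ by exon 9 of the principal transcript, the coding exon of the membrane-spanning segment, at chr1:154454488-154454581. The transcript that skips it has 1095 coding bases. The exon of 94 bases is shown, from the GENCODE transcript and on the plus strand, because reads that cross its ends would be needed to tell the forms apart; no part is in capitals.
IL6R exon 9: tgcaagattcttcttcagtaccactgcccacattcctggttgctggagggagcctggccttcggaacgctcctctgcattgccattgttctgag

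Both members were higher in PHLac-high, and the sequence just before their start sites is shown for that reason. Both genes were matched in the RefSeq promoter table (GRCh38.p14), whose windows span the RefSeq start and lie mostly before it. The RefSeq and GENCODE starts are 150 bases apart in IL6R and 30 bases apart in IL6ST, and the stretch shown ends before both. It is chr1:154405093-154405192 on the plus strand for IL6R, and chr5:55994994-55995213 on the minus strand for IL6ST. Capitals mark matches to the motifs searched.
IL6R promoter: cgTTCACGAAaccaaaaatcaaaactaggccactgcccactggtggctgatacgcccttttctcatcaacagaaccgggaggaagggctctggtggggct
IL6ST promoter: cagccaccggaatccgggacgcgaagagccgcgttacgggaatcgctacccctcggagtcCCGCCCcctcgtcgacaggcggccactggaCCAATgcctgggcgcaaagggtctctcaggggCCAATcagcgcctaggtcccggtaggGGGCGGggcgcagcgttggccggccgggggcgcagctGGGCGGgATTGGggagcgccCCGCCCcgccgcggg

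The motifs, searched on both strands of the whole window and chosen after the sequences had been seen, were TTCNNNGAA for STAT factors, TTCNNGAA or GAANNTTC for a pair of heat shock element units, the letters CCAAT for the box of that name, the letters GGGCGG for the GC box, the letters TATAAA for the TATA box, and TGANTCA for AP-1. None of these patterns holds another. The IL6R window held 1 heat shock element pair, 248 bases before the RefSeq start, and 1 AP-1 match 37 bases after it. Over all 35116 windows of the table, 13.5% held a match to the heat shock pair and 7.71% one to AP-1. The IL6ST window held 3 CCAAT matches, at 160, 128 and 58 bases before the start, and 4 GC boxes. CCAAT was present in 34.6% of windows and the GC box in 45.0%. Neither window held the STAT letters, which 7.66% of windows did, or TATAAA, which 11.5% did. The windows had no matched motif in common. The windows were 64.0% (IL6R) and 72.7% (IL6ST) G or C, with 27 and 36 CG steps, against medians of 58.7% and 14 over all windows. A match is a description of the letters and not of a bound factor.

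IL6R transcripts were scarce in PHLac-low. The 4 PHLac-low libraries had 202, 265, 199.98 and 328 normalised counts in repeats 1 to 4, from 235, 215, 417 and 319 reads. In PHLac-high the values were 1571, 2027, 1313 and 1394, from 1344, 2001, 1101 and 1053 reads. The fractions did not overlap: the lowest PHLac-high library stood well above the highest PHLac-low library, which was that of repeat 4. The means were 248 ± 60.8 and 1576 ± 319 (SD, n = 4), a coefficient of variation of 24.5% and 20.2%. The counting error of an IL6R value was at most 6.82%, smaller than the spread between repeats. The level was 7.80, 7.66, 6.57 and 4.26 times as high in PHLac-high as in PHLac-low in repeats 1 to 4. The log2 change in limma, with the repeat as a block, was 2.67 ± 0.14 (SE), a 6.37-fold difference with a 95% interval from 5.08 to 7.98 (Benjamini-Hochberg adjusted p = 1.24e-05 over all listed genes). Without repeat 4 it was 2.87. In these pooled cells, more cells with the transcript and more transcript per cell cannot be told apart.

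IL6ST transcripts were abundant in both fractions. The PHLac-low libraries had 3129, 3491, 4253 and 4480 normalised counts in repeats 1 to 4, from 2836 to 8869 reads. The PHLac-high libraries had 6196, 6124, 7731 and 5390, from 4071 to 6481 reads. Again the fractions did not overlap, but in repeat 4 the PHLac-low value was the highest of its fraction and the PHLac-high value the lowest of its own. The means were 3838 ± 634 and 6360 ± 984 (SD, n = 4). PHLac-high exceeded PHLac-low 1.98, 1.75, 1.82 and 1.203 times in repeats 1 to 4. In the same limma fit its log2 change was 0.73 ± 0.11 (SE, adjusted p = 0.000605), a 1.66-fold difference with a 95% interval from 1.4004 to 1.97. Without repeat 4 it was 0.89.

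**Figure D1:**
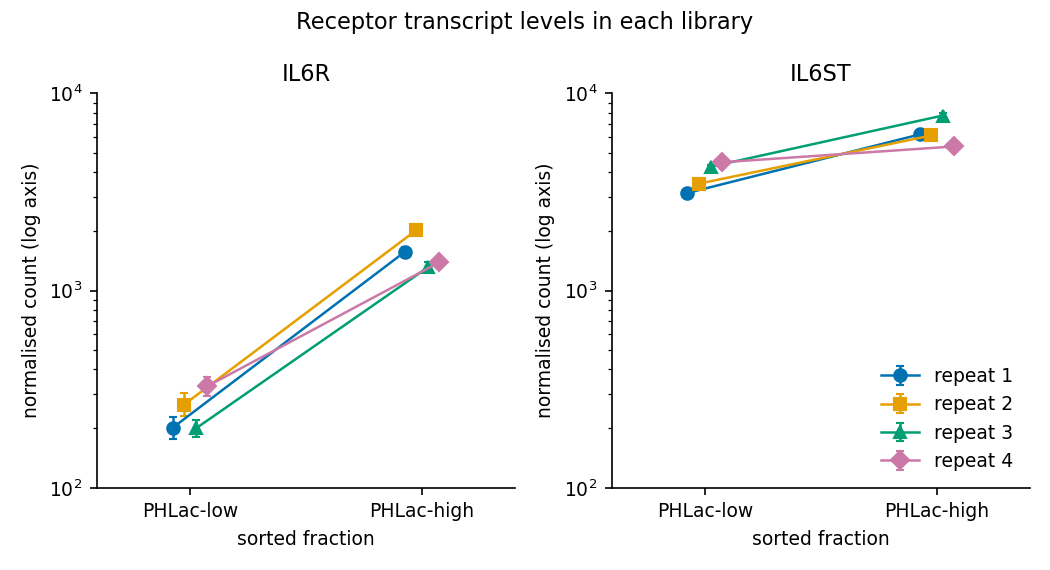
Normalised counts of IL6R (left) and IL6ST (right) on a log axis, with each repeat's PHLac-low and PHLac-high library joined by a line and bars for the 95% counting interval. IL6R rises from 199.98 to 328 up to 1313 to 2027, and IL6ST from 3129 to 4480 up to 5390 to 7731, with the flattest line of both genes in repeat 4.

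These calls have to be read against how the table was made. With the same limma fit 99.9% of the listed genes passed the threshold, 58.7% with a higher and 41.2% with a lower level in PHLac-high, so nothing is read from the passing of both members. In 23.3% of listed genes all 4 PHLac-high values lay above all 4 PHLac-low values, as they did for both members. In the authors' deposited table IL6R has a log2 fold change of 2.67 and the smallest adjusted p of all, 1.22e-83, followed by BAG3 at 7.5e-79, while IL6ST has 0.73 and 7.72e-11, at place 330. By p in the limma fit with the block, IL6R was at place 10 and IL6ST at place 640.

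With the authors' size factors the listed genes had a median log2 change of 0.25. As an alternative, libraries were scaled to an upper quartile computed from these selected genes only, which shifted the median by -0.22. Of these genes 58.7% were higher in PHLac-high and 41.2% lower. This scaling cannot separate a library effect from that imbalance, so a gene that fails under it is not shown to be unchanged. With upper-quartile scaling the change of IL6R was 2.45 and that of IL6ST 0.51 (limma adjusted p = 5.52e-06 and 0.00184). Both were still past the threshold, as were 2360 of the 3666 listed genes.

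The balance of the subunits was compared next, since IL6R needs gp130 to signal. Per 100 normalised counts of IL6ST there were 6.44, 7.58, 4.70 and 7.31 of IL6R in PHLac-low, repeats 1 to 4. In PHLac-high there were 25.4, 33.1, 17.0 and 25.9. Every PHLac-high library had more IL6R per IL6ST than any PHLac-low library, and repeat 3 was the lowest in both fractions. Corrected for transcript length, IL6ST exceeded IL6R 10.4 ± 2.42 times in PHLac-low and 2.73 ± 0.79 times in PHLac-high (SD, n = 4). IL6ST thus stayed the more abundant transcript in all 8 libraries. Its excess was smallest, 1.97 times, in the PHLac-high library of repeat 2 and largest, 13.9 times, in the PHLac-low library of repeat 3. Protein was not measured, and reads of the antisense genes could not be told apart from those of the members. The lengths are those of the principal transcripts, and which transcripts these cells use was not measured.

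**Figure D2:**
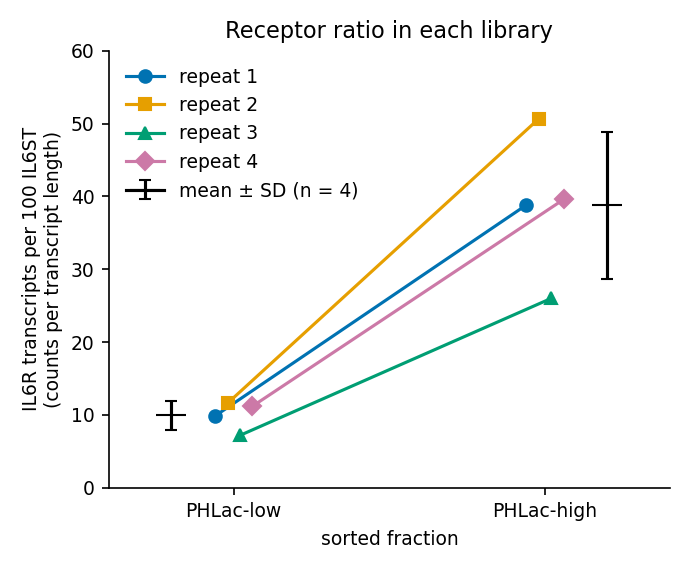
IL6R level per 100 IL6ST, both per transcript length, in each library, with lines joining the fractions of a repeat and the mean ± SD (n = 4) beside them. The PHLac-low libraries lie between 7.20 and 11.6 and the PHLac-high libraries between 26.0 and 50.7.

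The IL6R to IL6ST ratio rose by 1.97, 2.12, 1.85 and 1.82 on the log2 scale in repeats 1 to 4. Its mean of 1.94 ± 0.07 (SE, n = 4) is a 3.84-fold change, and it did not pass an exact two-sided paired permutation test (p = 0.13), which is the smallest p that 4 pairs can give. The ratio changed in the same direction in 4 of 4 repeats. Its change varied less between repeats than that of either subunit: the SD was 0.14, against 0.41 for IL6R and 0.32 for IL6ST. In repeat 4 both subunits changed less than in the other repeats, IL6R by 0.78 and IL6ST by 0.62 on the log2 scale, and the change of the ratio there was the smallest of the 4, by at most 0.302. Without repeat 4 the ratio change was 1.98. For comparison, 5.80% of the 2156 listed genes that were higher in PHLac-high fell short in repeat 4 by more than IL6R did, and 7.70% by more than IL6ST did. The median of those genes did not fall short, with a difference of 0.0068.

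Among all 3666 listed genes, ordered from the largest increase down, IL6R stood at place 9 by its mean paired change. In the separate repeats it held places 23, 13, 21 and 18. The 8 genes above it were HSPA6, MUC17, EFNB2, HSPA7, ST14, PNLDC1, B3GNT6 and RAB7B, of which HSPA6 and HSPA7 are near-identical heat shock protein 70 genes whose reads may be divided arbitrarily. Of those 8, 5 had a mean below 100 normalised counts. Just above IL6R came RAB7B, a small GTPase of endosome traffic, with a log2 change of 2.76. Just below came KBTBD8, a ubiquitin ligase adaptor, with 2.60, CDKL2, a protein kinase, with 2.56, and FOXJ1, the ciliogenesis transcription factor, with 2.52. When genes with a mean below 100 were left out, IL6R was at place 4 of 3305, and with a pseudocount of 0.1 in place of 1 it was at place 19 of the whole table. By mean normalised count over the 8 libraries, not corrected for length, it was at place 2186 of the table. That mean pools fractions with means of 248 and 1576.

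IL6ST stood at place 379 of 3666, with 10.3% of listed genes above it. It was at places 322, 310 and 312 in repeats 1 to 3 and at place 1631 in repeat 4. Its neighbours had changes within 0.004 of its own: AMD1, a polyamine synthesis enzyme, FOSL1, an AP-1 subunit, and RNF182, a ubiquitin ligase, lay just above, and AHR, the aryl hydrocarbon receptor, ELF4 and LMO4, transcriptional regulators, just below. By mean normalised count, also not corrected for length, IL6ST was at place 578. The changes of both members varied more between repeats than those of most listed genes, whose median SD was 0.16.

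**Figure D3:**
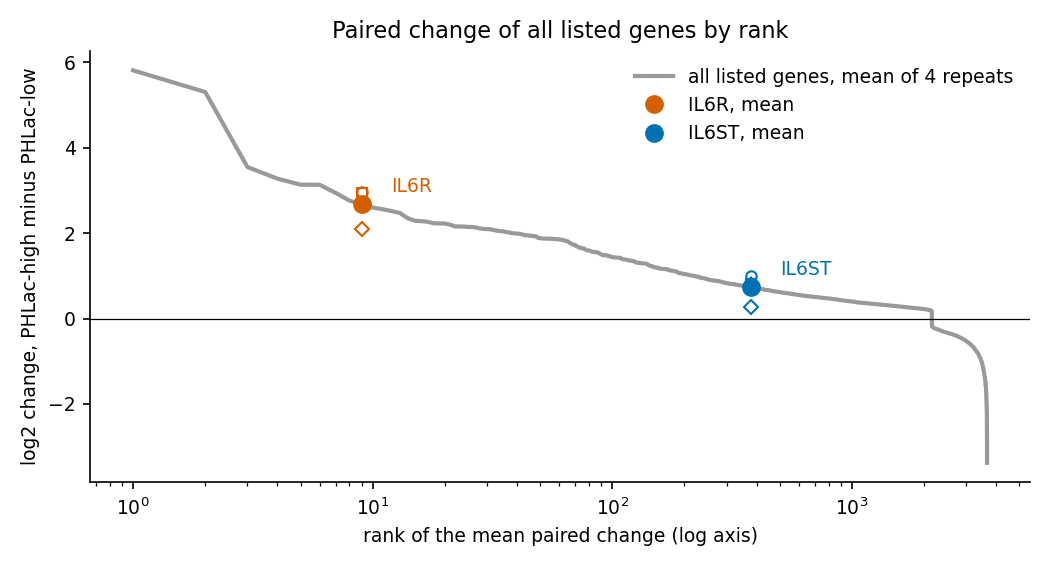
Mean paired log2 change of all 3666 listed genes against their rank on a log axis, with IL6R and IL6ST as filled circles and their 4 repeats as open symbols (the diamond is repeat 4). IL6R lies at rank 9 and IL6ST at rank 379, each with repeat 4 below the other repeats.

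Genes with a similar pattern were sought by Pearson's r of log2(normalised count + 1) over the 8 libraries, leaving out genes with a mean below 100. The 8 libraries fall into the sorted fractions and share depth and repeat effects, so r is given as a measure of likeness with no test. The 5 genes most like IL6R were SPATA13, a guanine nucleotide exchange factor (r = 0.996), SPATA2, an adaptor of the deubiquitinase CYLD (0.991), DUSP14, a dual-specificity phosphatase (0.990), TFB2M, a mitochondrial transcription factor (0.990), and EXOC8, an exocyst subunit (0.990). All 5 changed less than IL6R, from 0.50 for TFB2M to 1.23 for SPATA13 on the log2 scale. SPATA13, the closest, went from 644 ± 49.4 to 1514 ± 89.1 normalised counts (SD, n = 4). Of 3304 genes compared, 87 (2.63%) had r of at least 0.95 with IL6R.

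The 5 genes most like IL6ST were ZNF202, a zinc finger repressor (r = 0.992), EID3 (0.988), BACH1, a haem-responsive repressor (0.980), PRSS23, a secreted serine protease (0.978), and SIK2, a salt-inducible kinase (0.978). These genes were picked for following IL6ST over the same libraries, so a small change in repeat 4 is part of the choice, and the 5 genes most like IL6R, chosen the same way, also changed least there, by 0.46 to 1.14. PRSS23 changed by 1.77, 1.43, 1.35 and 0.69 in repeats 1 to 4, and ZNF202 by 0.81, 0.55, 0.61 and 0.26. The number of genes with r of at least 0.95 was 23 (0.696%). The lists share no gene. The members had r = 0.875 with each other. Of 3304 genes compared, IL6ST was at place 379 in likeness to IL6R, and IL6R at place 249 in likeness to IL6ST.

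**Figure D4:**
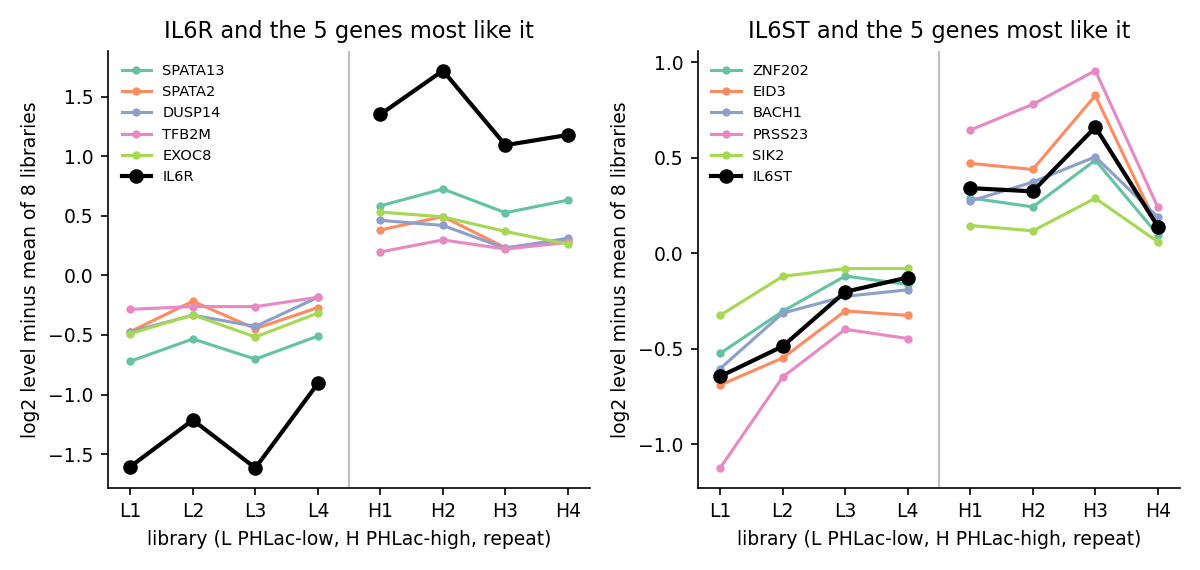
Log2 level of each library minus the gene's mean over the 8 libraries, for IL6R (left) and IL6ST (right) in black and the 5 genes most like each in colour; lines within a fraction only guide the eye. IL6ST and its 5 genes are closest between the fractions in repeat 4, while IL6R has a wider gap than any of its 5 genes.

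Of 115 other genes of the pathway, listed by role, 31 were in the table, and 18 (58.1%) were higher and 13 lower in PHLac-high (limma with the block), against 58.7% higher and 41.2% lower over all listed genes, a split near that of the whole table. Their median log2 change was 0.21, against 0.25 for all listed genes, and 21 of the 31 changed by less than 0.5. In 30 of them (96.8%, against 96.1% of all listed genes) the direction was the same in all 4 repeats, CEBPD being the exception with -0.02 in repeat 4. Without the block 5 of the higher genes and 3 of the lower genes passed, and 1135 of all 3666 listed genes did. With upper-quartile scaling 5 passed as higher and 3, PTPN11, PTPN1 and TIMP1, fell below 0, while all 13 lower genes still passed as lower. The whole table moved the same way: 850 listed genes passed as higher, against 2153 before, and 1510 as lower both times.

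Of 10 ligands of the family, 4 were in the table. CLCF1, a cytokine that acts through the ciliary neurotrophic factor receptor, was higher, by 0.36 ± 0.11 (SE, adjusted p = 0.0107). It had 845, 1054, 1096 and 1298 normalised counts in PHLac-low and 1401, 1361, 1336 and 1333 in PHLac-high, so its change shrank to 0.04 in repeat 4, and after upper-quartile scaling it did not pass (0.13, adjusted p = 0.301). LIF, leukaemia inhibitory factor, was lower, from 9126 ± 1608 to 7569 ± 1343 (SD, n = 4; log2 change -0.27 ± 0.05, SE). CTF1, cardiotrophin-1, was lower, with a log2 change of -0.36 ± 0.12, and of -0.21 without repeat 4. The fractions of LIF and of CTF1 overlapped, and neither gene passed without the block. IL6 itself, and IL11 and OSM, were not analysed here.

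Among 7 receptor chains, OSMR, which pairs with gp130 to bind oncostatin M, was the only listed chain besides the members. It had 1353, 1605, 2411 and 2168 normalised counts in PHLac-low and 1154, 1538, 2078 and 1590 in PHLac-high. Its fractions overlapped, but within each repeat PHLac-high was the lower, with a log2 change of -0.24 ± 0.08 (SE, adjusted p = 0.0136 with the block and 0.322 without it). Per kilobase of transcript, the PHLac-low levels were 42.0 ± 10.3 for IL6R, 340 ± 88.3 for OSMR and 424 ± 70.1 for IL6ST (SD, n = 4), and the ranges of OSMR and IL6ST overlapped. In PHLac-high they were 267 ± 54.0, 287 ± 68.4 and 702 ± 109. There the ranges of IL6R (222 to 343) and OSMR (208 to 375) overlapped, and IL6ST lay above both. Of 24 other class I cytokine receptors, the structural family of IL6R and gp130, EPOR, the erythropoietin receptor, was in the table and was lower, with a log2 change of -0.83 ± 0.10.

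The Janus kinases split. JAK2 was higher, from 371 ± 15.7 to 464 ± 43.3 normalised counts (log2 change 0.32 ± 0.10, SE, limma adjusted p = 0.0119), and did not pass after upper-quartile scaling (0.09). TYK2 was lower by -0.21 ± 0.06 and JAK3 by -0.56 ± 0.17, the latter from 178 ± 80.7 to 128 ± 63.1. Of 7 STAT factors, STAT2, which serves interferon signalling, and STAT6, which serves interleukin-4 signalling, were in the table. Both were lower, by -0.61 ± 0.08 and -0.24 ± 0.05. The fractions of TYK2, JAK3 and STAT6 overlapped, and none of these genes passed without the block. STAT3 and JAK1 were not analysed here. The gp130 adaptors PTPN11 (the phosphatase SHP2), GRB2 and YES1 were higher by 0.21, 0.26 and 0.27, close to the median of all listed genes, and none of the 3 passed after upper-quartile scaling.

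Of 15 inhibitors 5 were in the table, all higher with the authors' size factors, as were 58.7% of all listed genes. SOCS1, which blocks Janus kinases, had the largest change of the pathway after IL6R, 1.44 ± 0.27 (SE, limma adjusted p = 0.00171). Its normalised counts were 30.9, 51.7, 53.2 and 74.98 in PHLac-low and 163, 96.2, 94.2 and 244 in PHLac-high. The fractions did not overlap, with PHLac-high above PHLac-low as in 23.3% of all listed genes, and the difference was largest in repeats 1 and 4. SOCS6, SOCS4, SOCS7 and PTPN1, a phosphatase that acts on Janus kinases, changed by 0.32, 0.27, 0.25 and 0.20, and none of these 4 passed after upper-quartile scaling, where PTPN1 was at -0.02. RHBDF1, an inactive rhomboid that helps mature the sheddase ADAM17, was the only listed gene of 6 for receptor shedding and was lower, by -0.45 ± 0.08. ADAM10, ADAM17 and SOCS3 were not analysed here.

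Known STAT3 target genes moved in both directions. Of 34, 11 were in the table, 8 higher and 3 lower, against 58.7% higher and 41.2% lower over all listed genes. With upper-quartile scaling 4 passed as higher and 3 as lower, against 850 and 1510 of all 3666 listed genes. KLF4, a pluripotency-associated transcription factor, rose from 2035 ± 260 to 3793 ± 641 normalised counts (SD, n = 4; log2 change 0.89 ± 0.07, SE). MYC rose by 0.59 ± 0.06 and MCL1, a survival factor of the BCL2 family, by 0.58 ± 0.06. In both cases all PHLac-high values lay above all PHLac-low values, as in 23.3% of all listed genes. CEBPB, CEBPD, IRF1, BCL3 and TIMP1 were higher by 0.78, 0.49, 0.40, 0.39 and 0.20, with overlapping fractions, and of these CEBPB alone passed after upper-quartile scaling, where TIMP1 was at -0.03. JUNB, an AP-1 subunit, fell by 0.93 on the log2 scale, and PIM1, a survival kinase, fell by 0.49. A2M, a protease inhibitor, fell by 1.37 from a low and uneven level. Its mean went from 113 ± 88.9 to 44.8 ± 47.9 normalised counts (SD, n = 4), with changes from -2.20 to -0.68 between repeats. The fractions of PIM1 and of A2M overlapped, and none of the 3 lower genes passed without the block. In PHLac-low, JUNB had 29786, 28294, 24145 and 8924 normalised counts in repeats 1 to 4, and its PHLac-high values were 13161, 14660, 10863 and 6551. Its fractions overlapped through repeat 4. Most of these genes answer to other pathways as well, and the same libraries set all of these values.

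**Figure D5:**
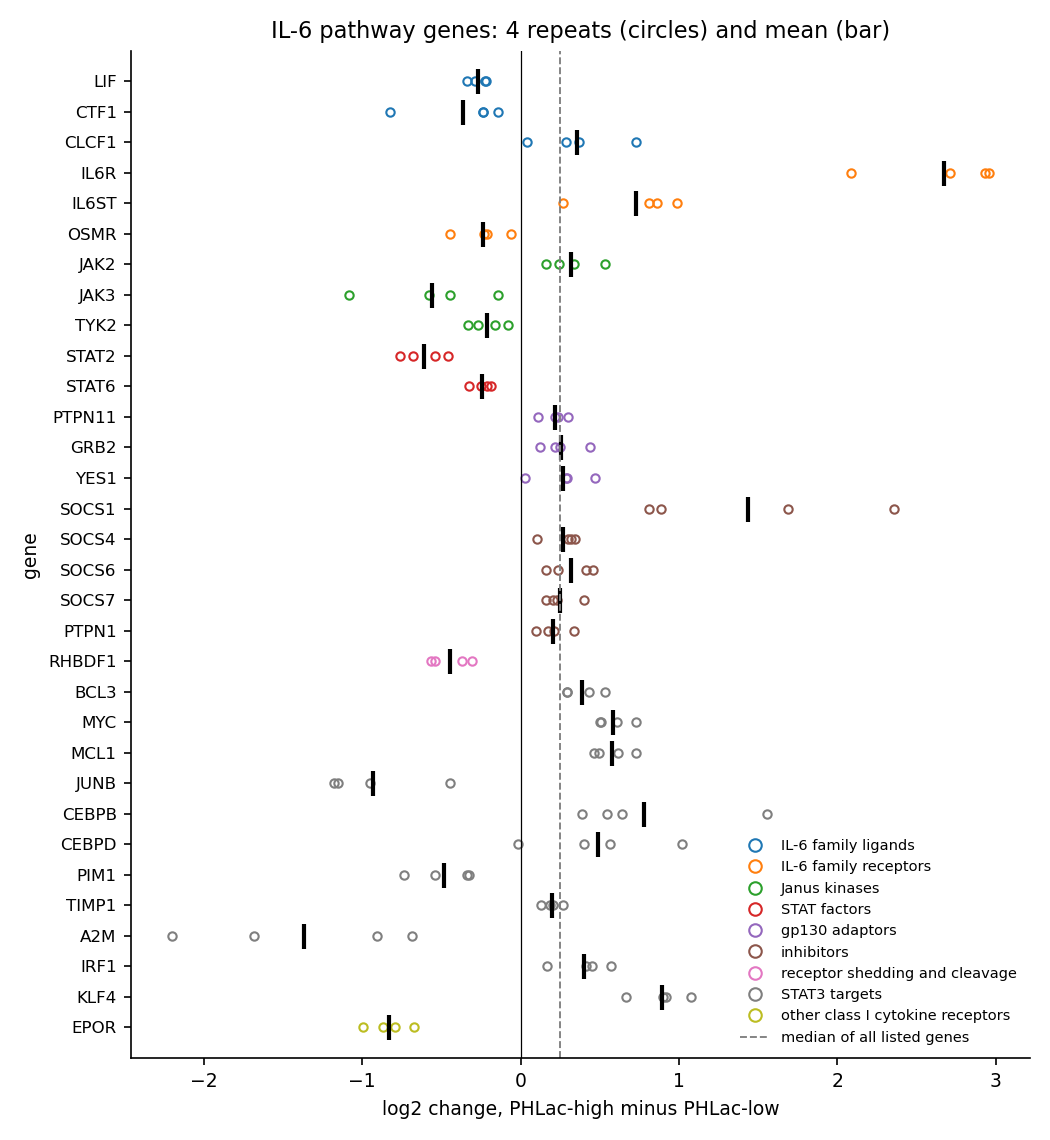
Log2 change in each repeat (circles) and their mean (bars) for the listed pathway genes described here, coloured by role; the dashed line is the median of all listed genes, 0.25. IL6R stands at 2.67, followed by SOCS1 at 1.44, and A2M, whose fractions overlap, is lowest at -1.37.

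IL6R is also a leukocyte gene, so leukocyte markers were read beside it. Of 9, 4 were in the table. PTPRC, the pan-leukocyte phosphatase CD45, was lower in PHLac-high, from 262 ± 107 to 103 ± 43.4 normalised counts (SD, n = 4), with a log2 change of -1.36. CD14, CD68 and CSF1R, genes of the monocyte lineage, were higher by 0.47, 0.55 and 1.36. The fractions of all 3 overlapped, and none of the 3 passed without the block. CSF1R was low, with 5.14 to 44.3 normalised counts in PHLac-low and 9.27 to 122 in PHLac-high. The summed level of the 4 listed markers was 1527 to 3431 in PHLac-low and 1601 to 5398 in PHLac-high. No listed marker was at 0 in any library, and the other 5 were not analysed here. CD14 was lowest in repeat 4, with 307 and 364 normalised counts against 1187 to 1918 elsewhere. The fibroblast and mesenchymal markers were represented by COL1A1 alone, 1 of 9, at 60.8 to 191 normalised counts and lower by -0.64. The part of these genes in the IL6R result was not tested.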

How the data were processed

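Transcripts of 8 libraries were compared, 4 PHLac-low and 4 PHLac-high, grouped and paired by the fraction and repeat in their titles. Libraries were made from selected messenger RNA with dUTP strand marking and sequenced paired end, per the labels' protocols. STAR, SAMtools, Subread, DESeq2 and hg38 are named in the submitters' processing notes, without versions or settings. The authors deposited a read signal, counts divided by a size factor per library, with a log2 fold change and an adjusted p-value for 3666 genes, none with an adjusted p above 0.05. In every library 100% of the values were whole multiples of the value of 1 read (within 0.01 read), which gave reads and size factors from 0.755 to 2.09.

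limma 3.58.1 (R 4.3.3) was fitted to log2(normalised count + 1) of all listed genes, with the repeat as a block and a mean-variance trend, and Benjamini-Hochberg adjustment over all of them at 0.05. On this scale the change of low genes is understated. Libraries of the same repeat deviated together from their group means (correlation across genes 0.53 to 0.76), and the series' design text states the pairing. On recovered reads with the authors' size factors, edgeR 4.0.16 (quasi-likelihood) and DESeq2 1.42.0 each passed 3666 genes. The limma, edgeR and DESeq2 fits with the block were tested on simulated counts, and the alternative settings of limma were not. The receptor ratio was tested by an exact permutation of signs over 4 pairs. Levels between genes are per length of the longest principal GENCODE release 29 transcript, except where normalised counts are named. Counting intervals are exact Poisson (95%) and cover counting error only. Named genes are both members, every listed gene of the pathway lists, the 5 genes most like each member and 3 neighbours on each side in rank; MUC17, EFNB2, HSPA6, HSPA7, ST14 and BAG3 were named after their values were seen. One listed pathway gene is counted in the totals but is not reported here by itself. Members and lists were chosen with earlier results of these data known. No column of sample values was left unmatched. Alternatives covered the block, pseudocount, scaling, tool, a filter on mean count and each repeat left out. The table holds selected genes only, so tests here cannot estimate false calls.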

Additional observations from a re-analysis of the deposited data

Results flagged for a closer look

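In 40 sets of 4 values (levels, ratios and paired changes of the members, and paired changes of the other listed pathway genes) the value farthest from the others was sought, by its gap over the set's range. Chance picks out about 1 in 20, or 2 here, and 1 was picked out. The log2 change of CTF1 was -0.83 in repeat 4, against -0.15, -0.24 and -0.24 in repeats 1 to 3, a gap of 0.865 of the range. No set of IL6R, IL6ST or ratio values was picked out. The cause was not tested.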

How the results depend on the processing

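IL6R and IL6ST kept their direction and passed under all 11 alternatives run for each, with log2 changes from 2.45 to 2.87 and from 0.51 to 0.89. Between 1135 and 3666 listed genes also passed under these alternatives, so nothing is read from the passing of both members. Leaving out one replicate at a time gave 2.58 to 2.87 for IL6R, 0.65 to 0.89 for IL6ST, 1.88 to 1.98 for the ratio change, 3468 to 3627 listed genes, 19 to 20 higher and 12 to 13 lower pathway genes (members included), and ranks of 6 to 12 and 310 to 421. Without the replicate block the ratio change of 1.94 passed an exact permutation test of 4 against 4 libraries (p = 0.0286, the smallest possible), whereas the paired test cannot go below 0.13. Without the replicate block 1135 listed genes passed against 3663, 7 higher pathway genes against 20 and 3 lower against 13. Upper-quartile scaling, computed from the selected genes only, gave 2360 listed genes and 7 higher pathway genes. DESeq2's size factors from the listed genes, added after seeing the data, gave 12 higher pathway genes. Restriction to a mean of at least 100 moved the rank of IL6R from 9 to 4, since fewer genes are ranked, and a pseudocount of 0.1 moved it to 19; for the other differences the cause was not tested. With coding lengths, added after seeing the data, IL6ST exceeded IL6R 8.11 times in PHLac-low and 2.13 times in PHLac-high. IL6R rested on 215 reads in its shallowest library, a counting error of 6.82%.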
